A study of Mus musculus with 4 samples.

Results

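Among all barcodes deposited from enriched blood T cells of tumor-bearing mice, 135 of 5434 (2.48%) were hemoglobin-rich. Barcodes, the tags of single droplets, were chosen by their globin share: one was counted as hemoglobin-rich when more than 50% of its unique molecular identifiers (UMIs, 1 per captured RNA molecule) lay on genes with symbols starting Hba- or Hbb-, with no limit on the number of genes. The libraries came from female C57BL/6 mice that were challenged subcutaneously with MC-38, a syngeneic colon adenocarcinoma line, at 6 to 8 weeks of age. Blood was drawn on day 18 from mice that were untreated, that received the PD-L1-blocking antibody MIH-5 on days 10, 13 and 17 (anti-PD-L1), that received the agonistic OX40 antibody OX86 with the TLR9 ligand CpG on day 7 (anti-OX40/CpG), or that received both (PDOX). One label names OX40 without CpG, and that library was read as anti-OX40/CpG from the regimen. Red blood cells were lysed and T cells were purified by negative magnetic selection before capture, so that the number of hemoglobin-rich barcodes is what remained after these steps. There was 1 library for each treatment and the record speaks of 1 mouse for each, so treatment, mouse, blood draw and library cannot be told apart and no test between treatments was made.

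Hemoglobin is a tetramer of alpha and beta chains that carries oxygen in red blood cells. Erythroid precursors in the bone marrow build up globin RNA and heme, expel the nucleus and enter the blood as reticulocytes, which still hold RNA. The reticulocyte clears its mitochondria and ribosomes and the remaining RNA disappears as it becomes a mature erythrocyte. Adult mice use the alpha genes *Hba-a1* and *Hba-a2*, and C57BL/6 mice carry the beta genes *Hbb-bs* and *Hbb-bt*.

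The 4 adult globin genes are set out first by the 150 bases directly before their annotated start sites (RefSeq, GRCm38, the same build as the mm10 named in the submitters' processing notes), because their transcripts define the barcodes and were found together in each of them. The windows lie at chr11:32283522-32283671 (*Hba-a1*, plus strand), chr11:32296342-32296491 (*Hba-a2*, plus strand), chr7:103827929-103828078 (*Hbb-bs*, minus strand) and chr7:103813924-103814073 (*Hbb-bt*, minus strand). Capitals mark every match, on either strand, to the TATA box letters TATAA, to the CCAAT box and to the letters CACCC, the core of a motif bound by Klf factors. All windows are written 5′ to 3′ and end at the base before the start site.
Hba-a1: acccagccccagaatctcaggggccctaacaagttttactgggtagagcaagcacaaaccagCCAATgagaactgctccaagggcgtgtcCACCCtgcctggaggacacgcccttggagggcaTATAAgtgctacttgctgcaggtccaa
Hba-a2: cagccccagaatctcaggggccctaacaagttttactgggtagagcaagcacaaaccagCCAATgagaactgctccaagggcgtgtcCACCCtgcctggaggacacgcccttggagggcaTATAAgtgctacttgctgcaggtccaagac
Hbb-bs: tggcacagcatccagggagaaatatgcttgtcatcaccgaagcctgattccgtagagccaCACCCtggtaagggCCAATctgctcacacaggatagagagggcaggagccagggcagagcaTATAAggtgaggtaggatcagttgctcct
Hbb-bt: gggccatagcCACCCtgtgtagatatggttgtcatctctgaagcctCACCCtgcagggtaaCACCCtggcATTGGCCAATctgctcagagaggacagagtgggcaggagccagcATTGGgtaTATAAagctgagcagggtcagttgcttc

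No matches overlapped. TATAA was found in 14.2%, CCAAT in 24.5% and CACCC in 37.4% of 32851 promoter windows of the same length, and all of them together in 1.10%. Each of the 4 globin windows held all of them, with TATAA starting 27 to 30 bases before the start site. *Hbb-bt* held 3 CACCC matches and 3 CCAAT matches, whereas the other windows held 1 of each. The *Hba-a1* and *Hba-a2* windows were identical at 147 of 153 aligned positions (96.1%), and the *Hbb-bs* and *Hbb-bt* windows at 115 of 156 (73.7%). The transcripts are also close copies, which bears on the counts by single gene. Of 251 stretches of 50 bases in the last 300 bases of the *Hba-a1* transcript (GENCODE M39), 70.9% were present unchanged in *Hba-a2*, against 35.9% for *Hbb-bs* in *Hbb-bt*. The split between both alpha genes is therefore less certain than the split between both beta genes.

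The 135 barcodes stood apart from all others by their globin share. The lowest share among them was 90.3%, the next 91.2%, the median 96.4% and the highest 98.4%, while the highest share in any other barcode was 5.36% and the next 2.82%. These shares are what the rule used and are given as a description. No barcode lay between 5.36% and 90.3%, where a droplet with a T cell and an erythroid cell of similar RNA content would fall, and no doublet caller was run. Of the 135, 23 had a share between 90% and 95% and 112 a share above 95%.

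**Figure D1:**
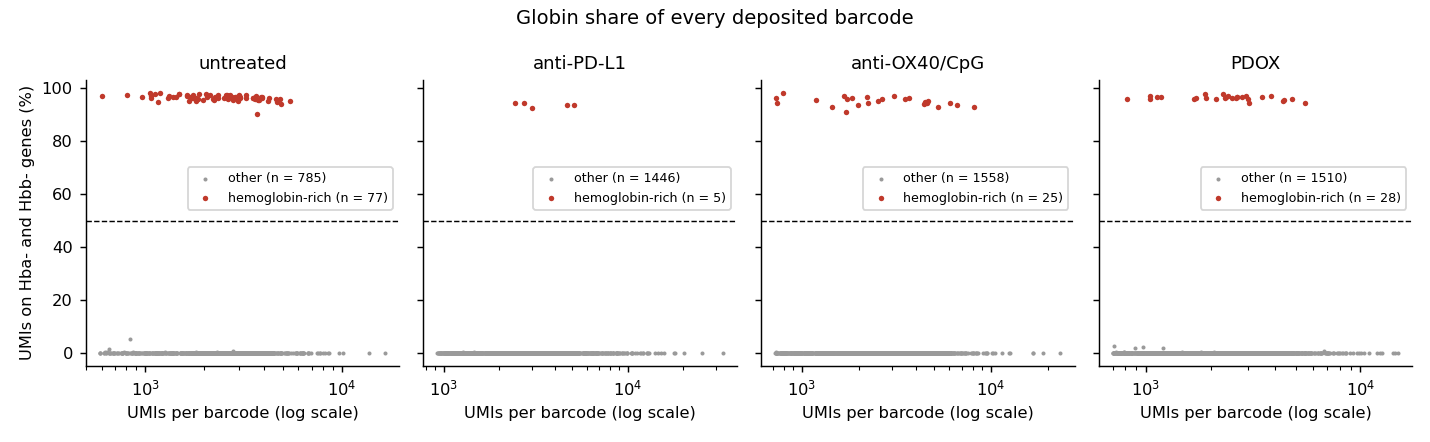
Each point is 1 barcode, with its UMIs on a log x axis and the percentage of UMIs on globin genes on the y axis, 1 panel for each library; the dashed line is the 50% limit. The 135 hemoglobin-rich barcodes (red) lie at 90.3% or above and all other barcodes (grey) at 5.36% or below.

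The untreated library held most of the hemoglobin-rich barcodes. It contained 77 among 862 barcodes (8.93%, exact 95% binomial interval 7.11 to 11%), the PDOX library 28 of 1538 (1.82%, 1.21 to 2.62%), the anti-OX40/CpG library 25 of 1583 (1.58%, 1.02 to 2.32%) and the anti-PD-L1 library 5 of 1451 (0.345%, 0.112 to 0.802%). The untreated share lay above the intervals of the other libraries and the anti-PD-L1 share below them, whereas the intervals of PDOX and anti-OX40/CpG overlapped. All intervals on counts given here cover counting error only, not the spread between mice. Globin genes accordingly took 7.99% of all UMIs in the untreated library, 1.70% in PDOX, 1.51% in anti-OX40/CpG and 0.344% in anti-PD-L1, and at least 98.16% of these globin UMIs were in hemoglobin-rich barcodes. The libraries held 2392650 to 4969885 UMIs. They shared 16 barcode sequences in pairs, of which 2 were hemoglobin-rich in 1 library and none in both.

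The hemoglobin-rich barcodes were not shallow. They had 600 to 8165 UMIs with a median of 2562, beside a median of 2814 in the other barcodes. What was small was the part outside the globins, with 13 to 585 UMIs in a barcode (median 89) and 15352 in all, spread as 7332 in untreated, 1132 in anti-PD-L1, 4168 in anti-OX40/CpG and 2720 in PDOX. Genes detected ranged from 17 to 332 (median 71), and 6 barcodes reached 200 genes, 2 from anti-PD-L1 and 4 from anti-OX40/CpG. After every barcode was thinned to 500 UMIs, which left none out, the median number of genes was 20 in untreated, 39 in anti-PD-L1, 27 in anti-OX40/CpG and 19 in PDOX, against 282 to 312 in the other barcodes (unthinned medians 65.5 to 153 against 974 to 1046). When instead the UMIs outside the globins were thinned to 100, the medians were 73 to 78 genes against 82 to 84, so that the remaining RNA was spread over nearly as many genes as that of the other barcodes. That thinning left out 76 of the 135 barcodes as too shallow, 48 in untreated, 9 in anti-OX40/CpG and 19 in PDOX.

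The globin split was nearly the same in the hemoglobin-rich barcodes of each library. Summed over libraries, *Hbb-bs* took 43.5% of their globin UMIs, *Hba-a1* 26.5%, *Hba-a2* 20.5% and *Hbb-bt* 9.49%, and every one of the 135 barcodes held UMIs of each. These are counts of molecules tagged at the 3′ end, which were not divided by transcript length. The embryonic genes *Hba-x*, *Hbb-y*, *Hbb-bh1* and *Hbb-bh2* had 0 UMIs in all barcodes of all libraries. The alpha genes together made up 46.2% of globin UMIs in untreated, 45.6% in anti-PD-L1, 48.4% in anti-OX40/CpG and 48.3% in PDOX. *Hba-a1* made up 56.0%, 57.6%, 56.4% and 56.7% of the alpha UMIs in the same order, and *Hbb-bs* 81.7%, 83.1%, 81.1% and 83.9% of the beta UMIs. Alpha and beta RNA were thus close to balance in the sums, with beta ahead in each library.

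Between single hemoglobin-rich barcodes the balance varied more. The alpha share ranged from 20.3% to 63.9% with a median of 48.0%, and 45 of the 135 barcodes had more alpha than beta UMIs. The lowest was an untreated barcode with 352 *Hba-a1*, 331 *Hba-a2*, 2328 *Hbb-bs* and 347 *Hbb-bt* UMIs, which was also the barcode with the lowest globin share, and the next lowest had an alpha share of 36.1%. The *Hba-a1* part of alpha ranged from 49.5% to 69.3% and the *Hbb-bs* part of beta from 73.5% to 97.9%. Barcodes with more RNA outside the globins, which is the complement of the share the rule used, tended to have a lower alpha share. Spearman's rho between UMIs outside the globins per 1000 UMIs and the alpha share was -0.52 over 77 barcodes in untreated, -0.60 over 25 in anti-OX40/CpG and -0.56 over 28 in PDOX (Pearson's r -0.66, -0.42 and -0.48). Barcodes of 1 library share its mouse, preparation and depth and are not replicates, so these values describe the libraries and carry no p. The UMIs outside the globins per 1000 had a median of 34.7 in untreated, 64.2 in anti-PD-L1, 49.0 in anti-OX40/CpG and 35.6 in PDOX, with ranges that overlapped between all libraries.

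**Figure D2:**
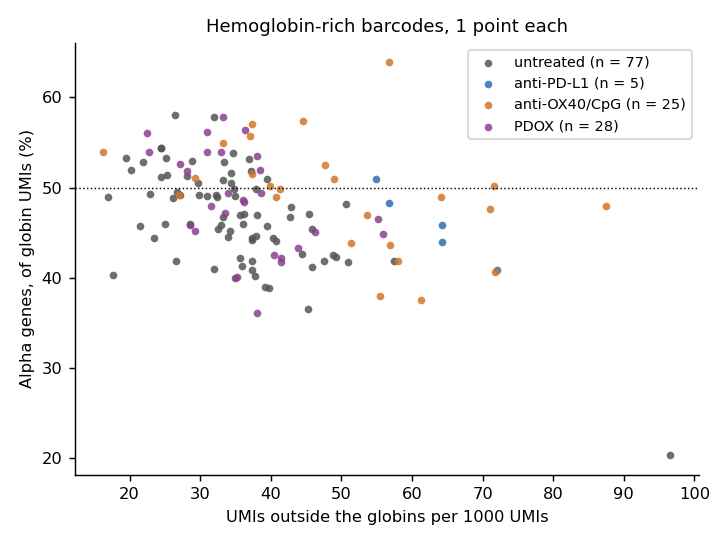
Each point is 1 hemoglobin-rich barcode, colored by library, with UMIs outside the globins per 1000 UMIs on the x axis and the alpha share of its globin UMIs (%) on the y axis; the dotted line marks 50%. The points slope downwards, with the untreated barcode at an alpha share of 20.3% and 96.6 UMIs per 1000 at the lower right.

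The globin UMIs in the other barcodes were few, and their split varied between libraries. There were 891 in untreated, 315 in anti-PD-L1, 915 in anti-OX40/CpG and 497 in PDOX, or 4.06, 0.636, 1.89 and 1.23 per 10000 UMIs. At least 1 globin UMI was found in 60.8% of the other barcodes in untreated, 19.1% in anti-PD-L1, 42.3% in anti-OX40/CpG and 19.6% in PDOX, at median depths of 2472 to 3114 UMIs. The alpha share among them was 27.4%, 36.2%, 32.8% and 50.7% in that order, so that it was lower than in the hemoglobin-rich barcodes in 3 of 4 libraries and higher in PDOX. The mean difference over the libraries was 10.4 ± 9.36 percentage points (SD, n = 4, exact two-sided sign-flip permutation test p = 0.250, Benjamini-Hochberg adjusted over 5 measures 0.312). The *Hba-a1* part of alpha was 73.4%, 60.5%, 76.3% and 81.7% in the other barcodes and higher than in the hemoglobin-rich barcodes in 4 of 4 libraries, by a mean of 16.3 points that did not pass (exact sign-flip permutation p = 0.13, adjusted 0.208). The *Hbb-bs* part of beta, 83.0% to 84.1%, was within 2.92 points of the hemoglobin-rich barcodes in each library and also did not pass (exact sign-flip permutation p = 0.13, adjusted 0.208). With 4 libraries 0.13 is the smallest p this test can give.

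In PDOX the alpha share of the other barcodes rested on a few of them. The 5 with the most globin UMIs held 28.6% of the total, nearly all *Hba-a1*, with 58 *Hba-a1* UMIs of 61 globin UMIs, then 22 of 23, 21 of 22, 18 of 20 and 11 of 16. These 5 barcodes had 0 UMIs of *Cd3d*, *Cd3e* and *Cd3g* and 24, 3, 5, 1 and 5 UMIs of *Lyz2*, the lysozyme gene of myeloid cells. The first of them also had 8 UMIs of the B cell marker *Cd79a*, which was at 0 in the other 4, and the neutrophil marker *S100a8* was at 0 in all 5. In untreated the barcode with the highest share outside the group, 5.36%, had 45 globin UMIs, all on *Hba-a1*, among 341 genes. No hemoglobin-rich barcode had an *Hba-a1* part of alpha above 69.3%. When other barcodes with 5 or more globin UMIs were left out, a choice made after the data were seen, the alpha share in the rest was 20.8%, 34.5%, 32.6% and 28.5%, below the hemoglobin-rich barcodes in 4 of 4 libraries, with a mean difference of 18 points (exact sign-flip permutation p = 0.13). The *Hba-a1* part of alpha in the rest was then 66.7%, 58.5%, 76.3% and 64.9%, so that hemoglobin-rich minus other barcodes the mean difference moved to -9.89 points, and it was -0.872 in anti-PD-L1. Whether these UMIs came from free RNA was not tested.

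**Figure D3:**
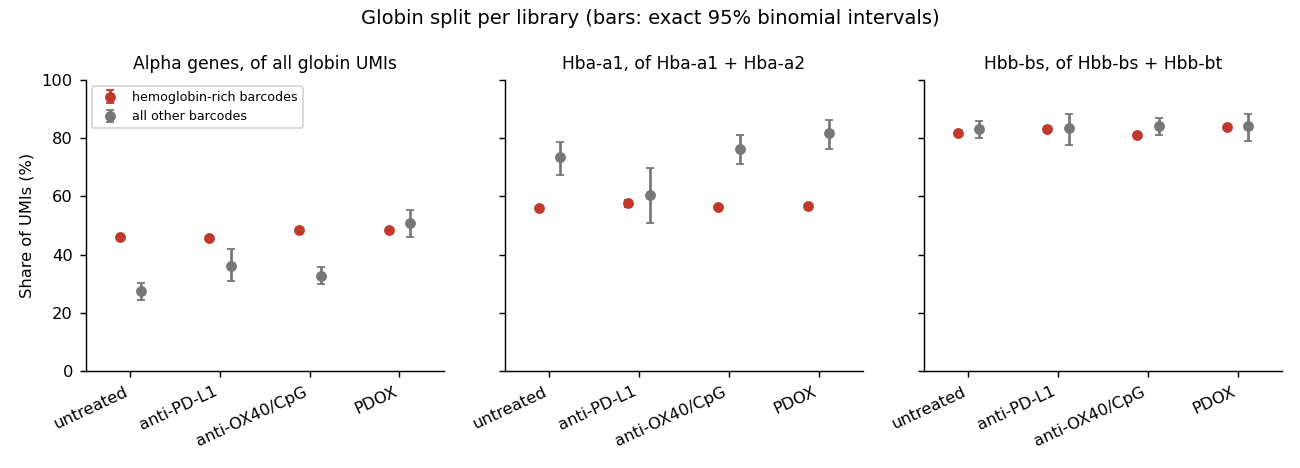
Shares of globin UMIs (%) by library in hemoglobin-rich barcodes (red) and all other barcodes (grey) for the alpha genes together, *Hba-a1* among both alpha genes and *Hbb-bs* among both beta genes, with exact 95% binomial intervals that for most red points are narrower than the point. The red points stay within 45.6 to 48.4% for alpha while the grey points run from 27.4 to 50.7%.

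Outside the globins, the hemoglobin-rich barcodes carried red cell transcripts. *Alas2*, the erythroid enzyme of the first step of heme synthesis, led with 698 UMIs, 4.55% of all UMIs outside the globins. It is the 1 marker given for these barcodes that the rule did not use, and it was found in 124 of them (91.9%) and in 69 of the other 5299 (1.30%). Other transcripts with many UMIs were those of *Ubb* (431 UMIs), a ubiquitin gene, *Ftl1* (377), the ferritin light chain, and *Bpgm* (332), which makes the oxygen-affinity regulator bisphosphoglycerate. *Mkrn1* had 289 UMIs, *Ube2l6* 247 and *Gpx1* 240. All levels below are UMIs per 10000 UMIs outside the globins, so they describe the makeup of this remaining RNA and not its amount in a droplet.

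Sums outside the globins of hemoglobin-rich and other barcodes were compared across genes in the 3 libraries with at least 10 hemoglobin-rich barcodes, with edgeR's quasi-likelihood test and the library as a block. Of 6297 genes tested, 120 (1.91%) were higher and 75 (1.19%) lower in hemoglobin-rich barcodes at a Benjamini-Hochberg adjusted p under 0.05, together 3.10%. With TMM scaling in place of library totals the counts were 82 higher and 434 lower, and the higher part of the calls went from 61.5% to 15.9%. With DESeq2's size factors they were 105 and 128. These scalings moved the log2 fold changes of 212 genes with at least 10 UMIs in hemoglobin-rich barcodes by a median of -1.99 and -0.72. Lower genes are harder to call than higher ones at this depth, since 3738 of the genes tested had 0 UMIs in the hemoglobin-rich barcodes. The 75 lower genes include 9 with under 4 UMIs there. A gene could pass the filter on low counts before the test through the hemoglobin-rich barcodes alone. The number of higher genes thus rests partly on that filter. The 2 sums from 1 library share its mouse and preparation, and the p-values hold for these libraries only. The spread between libraries is pooled over genes by edgeR, so a very small p does not measure that gene's own spread over 3 libraries.

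The heme synthesis genes were split. Of 9 genes, 6 passed the filter on low counts and 3 were called higher (*Alas2*, *Fech* and *Urod*), none lower. *Alas2* was found in 73 of 77 hemoglobin-rich barcodes in untreated, 5 of 5 in anti-PD-L1, 20 of 25 in anti-OX40/CpG and 26 of 28 in PDOX. Its summed level was 535, 256, 295 and 566 per 10000, against 0.278, 0.00606, 0.0103 and 0.00988 in the other barcodes. The sum was thus higher in each library (log2 fold change 13.35 ± 0.54 SE, edgeR adjusted p = 2.2e-128). The 11 hemoglobin-rich barcodes without *Alas2* had 13 to 88 UMIs outside the globins, under the overall median of 89. *Fech*, the enzyme that inserts iron to finish heme, was at 83.2, 61.8, 52.8 and 69.9 per 10000 against 0.106 to 0.120 (log2 fold change 9.20 ± 0.52 SE, edgeR adjusted p = 4.6e-66). *Urod*, an enzyme of the middle of the pathway, rested on 8 UMIs and its call was lost with TMM scaling or without any of the 3 libraries. *Alad*, *Uros*, *Cpox*, *Ppox* and the mitochondrial carrier gene *Slc25a38* had 0 UMIs in all 135 barcodes, which allows up to 1.95 per 10000 each. Their levels in the other barcodes, 0.0916 to 0.148, lie below that limit, so a difference was not detectable at this depth.

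Most of the iron handling genes tested were also higher. Of 5, 4 were called higher and none lower. *Ftl1* was at 303, 124, 175 and 250 per 10000 in the same library order as for *Alas2*, against 11.3 to 19.0 in the other barcodes (log2 fold change 3.94 ± 0.37 SE, edgeR adjusted p = 1e-23). *Fth1*, the ferritin heavy chain, was at 53.0 to 81.6 against 14.4 to 26.4, and its direction depended on scaling, with a log2 fold change of 1.87 as called and -0.14 with TMM. The *Fth1* call was also lost with DESeq2's size factors (1.13, edgeR adjusted p = 0.055) and with DESeq2 (1.12, adjusted p = 0.13), so that 3 of the 5 genes were higher under each of these scalings. *Slc25a37*, the mitochondrial iron importer mitoferrin, had 41 UMIs (26.7 per 10000 against 0.0642) and none in the 5 anti-PD-L1 barcodes. *Slc48a1*, a heme transporter, had 20 UMIs (13.0 against 0.229). The transferrin receptor gene *Tfrc*, through which erythroid precursors take up iron, had 0 UMIs in hemoglobin-rich barcodes. It did not pass the filter on low counts, so it was not tested and no difference was shown. The limit given above for heme genes at 0 holds here too.

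**Figure D4:**
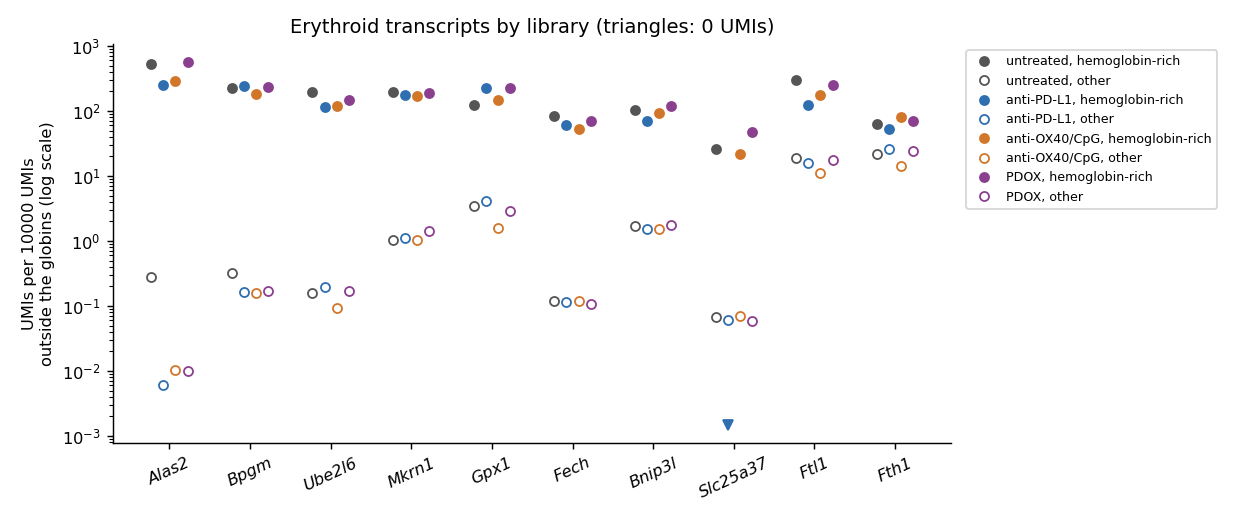
Levels of 10 erythroid transcripts in UMIs per 10000 UMIs outside the globins (log y axis), with filled points for hemoglobin-rich and open points for other barcodes, colored by library, and triangles at the bottom for 0 UMIs. Apart from *Slc25a37* in anti-PD-L1, where 5 barcodes gave 0 UMIs, the filled points lie above the open points, most widely for *Alas2* and most narrowly for *Fth1*.

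Genes of ubiquitin tagging and organelle clearance had the highest summed level of the erythroid lists, 895 per 10000 against 35.5 in the other barcodes. Of 11 tested, 8 were higher and none lower, and these counts were 8 and 0 with each of the other scalings. *Mkrn1*, a ubiquitin ligase, was at 199, 177, 173 and 188 per 10000 in the hemoglobin-rich barcodes of the 4 libraries against 1.02 to 1.45 (log2 fold change 7.34 ± 0.44 SE, edgeR adjusted p = 3.4e-58). *Ubb* was at 267, 300, 281 and 309 against 24.5 to 29.3. The Poisson intervals of both genes overlapped between all libraries. *Bnip3l*, the receptor through which reticulocytes remove mitochondria, was at 104, 70.7, 93.6 and 118 against 1.51 to 1.76 (log2 fold change 5.98 ± 0.44 SE, edgeR adjusted p = 4.4e-40). *Ube2l6*, a conjugating enzyme for ubiquitin and ISG15, was at 115 to 196 against 0.0927 to 0.194, and *Gabarapl2*, *Map1lc3b*, *Rnf10* and *Ube2o* were also called higher. *Ube2h*, *Fbxo7* and *Rnf123* did not pass.

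Of 7 tested genes for peroxide defence and red cell metabolism, 6 were higher and none lower. *Bpgm* was at 228, 239, 180 and 232 per 10000 against 0.157 to 0.319 in the other barcodes (log2 fold change 10.02 ± 0.49 SE, edgeR adjusted p = 8.2e-88). *Gpx1*, a glutathione peroxidase, was at 123, 230, 149 and 228 against 1.57 to 4.12. *Prdx2*, *Cat*, *Blvrb* and the carbonic anhydrase gene *Car2* were higher on 43, 10, 37 and 20 UMIs in the libraries tested (47, 16, 39 and 24 with anti-PD-L1). The superoxide dismutase gene *Sod1* had 0 UMIs and was tested but not called, so it was not shown to be lower. Of 6 tested further reticulocyte transcripts, 5 were higher. They included *Cd24a*, a surface glycoprotein gene, *Isca1*, of iron-sulfur cluster assembly, *Fam46c* and the survival gene *Bcl2l1*, at 129-, 158-, 119- and 63.8-fold the level in the other barcodes.

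Membrane and skeleton genes were sparse. Of 19 genes only 4 passed the filter on low counts, and 2 were called higher. One was *Epb41*, which encodes protein 4.1 of the skeleton, with 26 UMIs and a level of 16.9 per 10000 against 0.312 in the other barcodes (log2 fold change 5.82 ± 0.63 SE, edgeR adjusted p = 7.6e-18). *Slc4a1*, the anion exchanger band 3, had 8 UMIs and the blood group gene *Rhd* 6.

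Transcripts of early erythroid cells gave few UMIs, at levels not shown to be lower than in the other barcodes. The list of 7 progenitor and cycling genes, with *Kit*, *Gata2*, *Myb*, *Cd34*, *Mki67* and *Top2a* all at 0, had 1 UMI in the 135 barcodes. The list of erythroid regulators had 5 UMIs over 11 genes, with *Gata1*, *Klf1*, *Tal1* and *Epor* at 0, and of its 3 genes tested none was called by edgeR, none at an unadjusted p under 0.05 and none by DESeq2. The 2 progenitor genes tested, *Pcna* and *Top2a*, gave the same counts.

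Ribosomal protein transcripts made up a smaller part of the remaining RNA than in the other barcodes. Their share of UMIs outside the globins was 8.92% in untreated, 10.6% in anti-PD-L1, 14.9% in anti-OX40/CpG and 10.5% in PDOX, against 41.1%, 41.2%, 43.0% and 34.9%. The groups did not overlap and the share was lower in 4 of 4 libraries, by 28.8 ± 3.4 points (SD, n = 4), with the smallest p the exact sign-flip permutation test allows (0.13, adjusted 0.208). Of 93 ribosomal protein genes tested, 60 were lower and none higher in edgeR, and 82 and 88 were lower with DESeq2's size factors and TMM. *Rps28* had 4 UMIs in the 3 libraries tested, 2.81 per 10000 against 58 (log2 fold change -4.23 ± 0.65 SE, edgeR adjusted p = 7.9e-09), and *Rps27* 16 UMIs (11.3 against 112). The ribosomal protein gene with the most UMIs was *Rpl41*, with 135. *Snrpg*, a splicing protein gene, and the pseudogene *Rpl23a-ps3* had 0 UMIs, which makes them at least 3.12-fold and 3.24-fold lower on a floor of 3 counts over the group. Pseudogenes such as *Rpl23a-ps3* and *Gm9843* share sequence with ribosomal protein genes, so that their counts are uncertain. Ribosomal protein genes were taken here by symbol, which counted *Rpl23a-ps3* among them and left out *Gm9843* and *Rpl36al*. The 10 largest decreases also included *Rpl36al*, *Rps25*, *Rps7* and *Nkg7*, a cytotoxic granule gene.

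Mitochondrial transcripts showed no common direction. Their share was 2.21%, 1.94%, 4.63% and 1.76% in hemoglobin-rich barcodes against 2.81%, 2.35%, 2.43% and 2.12% in the others, lower in 3 of 4 libraries and higher in anti-OX40/CpG (mean difference 0.209 ± 1.33 points, exact sign-flip permutation p = 1). Of 13 genes tested only *mt-Co1*, a subunit of cytochrome c oxidase, was called, at 92.8 per 10000 against 38.4 (log2 fold change 1.24 ± 0.37 SE, edgeR adjusted p = 0.026). That call was lost with TMM, with DESeq2's size factors, with DESeq2, with all 4 libraries and without the block. It was also lost without the anti-OX40/CpG or the PDOX library. With TMM 7 of the 13 were lower and none higher.

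Markers of other blood cells gave few UMIs. The 8 T cell markers together had 35 UMIs in 31 of the 135 barcodes, 22.8 per 10000 against 45.3 in the other barcodes, and ranged from 13.6 to 33.6 between libraries. *Cd3e*, a chain of the T cell receptor complex, had 11 UMIs in 11 hemoglobin-rich barcodes (8.15%) and was found in 61.6% of the others, and *Cd3d* was found in 2 (1.48%) against 82.9%. The sums were 6 UMIs for B cell, 14 for monocyte, 1 for neutrophil, 6 for NK cell and 1 for platelet markers, led by *Lyz2* with 11. Of the 22 genes of these lists tested, edgeR called none, while at an unadjusted p under 0.05 there were 1 higher and 6 lower, and with TMM 6 T cell, 4 monocyte, 2 neutrophil, 1 B cell and 1 NK cell genes were lower. DESeq2 called 2 T cell and 1 monocyte genes lower. Whether these UMIs came from free RNA was not tested. *Malat1*, an RNA that stays in the nucleus, had 106 UMIs in 67 of the 135 barcodes against a share of 99.8% of the other barcodes, and its level was lower at 72.3, 88.3, 64.8 and 58.8 per 10000 against 218 to 276 (log2 fold change -1.95 ± 0.36 SE, edgeR adjusted p = 3.7e-06). Of 4 genes for nuclear-retained RNA tested it was the only one called. It held 106 of the 115 UMIs of that list.

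**Figure D5:**
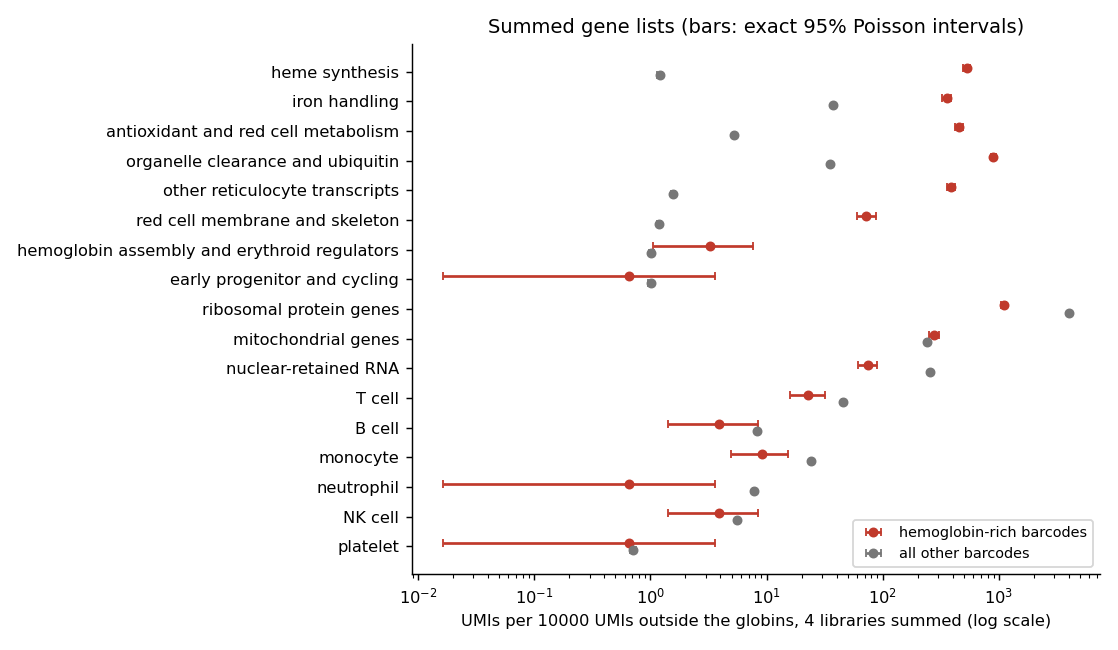
Summed UMIs of each gene list per 10000 UMIs outside the globins over the 4 libraries (log x axis) in hemoglobin-rich (red) and other barcodes (grey), with exact 95% Poisson intervals. Red lies to the right for heme, iron, clearance, metabolism, reticulocyte, membrane, regulator and mitochondrial genes and to the left for ribosomal protein, nuclear, T cell, monocyte and neutrophil genes, while the intervals of B cell, NK cell, platelet and progenitor genes include the grey points. The mitochondrial point rests on anti-OX40/CpG, since the level was lower in the other libraries, and the regulator point rests on 5 UMIs. The nuclear point rests mostly on *Malat1*.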

How the data were processed

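Single-cell RNA sequencing counts of enriched blood T cells were used from 4 libraries, 1 for each treatment. After 10x Chromium 3′ (v2) library preparation, Cell Ranger 2.1.1 was run by the authors, who deposited raw UMI counts for 27998 genes and each retained barcode, with no normalization; the submitters' processing notes name mm10. The annotation and the way barcodes were retained are not given in the sources used here. The authors left hemoglobin genes and barcodes under 200 genes out of their own analysis, whereas all deposited barcodes were used here.

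Membership, the gene lists and the tests were chosen with earlier results of these data known. Raw counts of hemoglobin-rich and of all other barcodes were summed for each library. The genes outside the globins were tested in untreated, anti-OX40/CpG and PDOX with edgeR 4.0.16 (R 4.3.3), using glmQLFit and glmQLFTest on the counts, filterByExpr, the library as a block and Benjamini-Hochberg adjustment over 6297 genes. Each SE was back-calculated as the absolute log2 fold change over the square root of the F statistic of that test. TMM had been planned as the scaling, but on simulated data of this comparison with 6297 genes, 100 raised and 100 lowered by 3 on the log2 scale, TMM recovered 1% of the raised and 32% of the lowered genes with 166 false calls. Library totals recovered 55% and 8% with 2 false calls, so they were used and TMM is given as an alternative. In the simulation both groups had the profile of the other barcodes apart from the changed genes. It did not contain the lower ribosomal share of the real hemoglobin-rich barcodes, so it cannot decide which scaling is right here. DESeq2 1.42.0 was a further alternative. Shares were compared over the 4 libraries by an exact two-sided sign-flip permutation test. Intervals are exact 95% binomial (Clopper-Pearson) or Poisson intervals. A group with 0 UMIs was given a floor of 3 counts. Thinning used seed 20230117.

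Named genes were the globins, genes of the erythroid lists with at least 10 UMIs in hemoglobin-rich barcodes or a call, the genes of the other lists with the most UMIs, and the 10 largest called increases and decreases with the same direction in every library tested. Genes named beyond this rule, such as list members at 0, *Isg15*, *Isg20* and the genes with the most UMIs, were chosen after their values were seen. *Ahsp*, *Flvcr1*, *Trac*, *Trbc1*, *Trbc2*, *Ighm* and *Igkc* were not analysed here. Some genes that the rule names are not reported here. Promoter windows came from RefSeq on GRCm38 and transcripts from GENCODE M39.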

Additional observations from a re-analysis of the deposited data

Results flagged for a closer look

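The alpha share of globin UMIs differed in sign between libraries. Hemoglobin-rich minus other barcodes it was 18.8 percentage points in untreated, 9.39 in anti-PD-L1 and 15.6 in anti-OX40/CpG, but -2.40 in PDOX. The mitochondrial share of UMIs outside the globins was -0.605 points in untreated, -0.410 in anti-PD-L1 and -0.351 in PDOX, but 2.20 in anti-OX40/CpG. Each library is 1 sample, so the difference between libraries was not tested.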

How the results depend on the processing

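The number of hemoglobin-rich barcodes was 135 with limits of 30%, 70% or 90% and with ribosomal and mitochondrial genes left out, and 134 when barcodes with 200 or more other genes were left out. Thinned to 250 UMIs, the mean over libraries of the median number of genes was 14.0 in hemoglobin-rich and 175 in other barcodes, beside 26.2 and 293 at 500 UMIs, since fewer UMIs give fewer genes. The mitochondrial difference turned to -0.455 points without the anti-OX40/CpG library and spanned -0.455 to 0.480 over all libraries left out in turn. The 75 lower genes became 128 with DESeq2's size factors in edgeR, 434 with TMM and 138 with DESeq2, and *Fth1* turned to -0.14 with TMM. Of the 75, 60 were ribosomal protein genes. With ribosomal and mitochondrial genes left out 40 genes were lower, so the lower calls among the remaining genes rose. In that fit log2 fold changes moved by a median of -0.60. Leaving out 1 library in turn gave 71 to 87 higher and 42 to 61 lower genes (71 and 42 without untreated, 44 lower without PDOX), where fewer samples were fitted. Among the named genes, the call was lost under 6 alternatives for *Gm9843* and *Nkg7*, 5 for *Rpl23a-ps3* and *Snrpg*, 4 for *Rpl36al* and *Urod*, 3 for *Fth1* and 2 for *Cat*. Without the barcode with the most UMIs outside the globins in each library, chosen after seeing the data, 114 genes were higher and 65 lower. No paired analysis was possible between treatments because each has 1 sample. Within a library, the block pairs the sums of hemoglobin-rich and other barcodes, and without it 135 genes were higher and 60 lower. Depth limits what can be said of low transcripts, since 15352 UMIs outside the globins were spread over 135 barcodes.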

Other observations

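Interferon-linked genes were found among the hemoglobin-rich barcodes. *Rsad2*, which encodes the antiviral protein viperin, was among the 10 largest increases (log2 fold change 9.95 ± 0.57 SE, edgeR adjusted p = 7.6e-64). It had 35 UMIs in untreated, 3 in anti-PD-L1, 27 in anti-OX40/CpG and 10 in PDOX, or 47.7, 26.5, 64.8 and 36.8 per 10000 UMIs outside the globins, against 0.0103 to 0.145 in the other barcodes. *Isg20*, an exonuclease gene chosen after its values were seen, had 48, 6, 20 and 11 UMIs and a level 268-fold that of the other barcodes. *Isg15*, a ubiquitin-like modifier gene also chosen after its values were seen, had 4, 0, 33 and 4 UMIs, and 24 of the 33 in anti-OX40/CpG lay in 1 barcode, the one with 585 UMIs outside the globins, which also held 11 of the 27 *Rsad2* UMIs. *Rsad2* was found in 39 barcodes and *Isg15* in 11. No interferon list was tested, and no difference between treatments was tested.

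The remaining large increases were of genes outside the lists. *Rec114*, known from meiotic recombination, had 8, 1, 19 and 2 UMIs in hemoglobin-rich barcodes and 0 in all others, at least 7540-fold higher on a floor of 3 counts in the 3 libraries tested. *Apol11b*, of the apolipoprotein L family, had 12, 2, 14 and 6 UMIs, of which 9 of the 14 in anti-OX40/CpG lay in 1 barcode, and *Fam213a* 12, 3, 13 and 8. In the other barcodes of the libraries tested, *Rec114* had 0 UMIs, *Apol11b* 5 and *Fam213a* 59. These genes passed the filter on low counts only through the hemoglobin-rich barcodes, where they are high. Their folds are therefore given as a description. *Fam220a* was at 112, 97.2, 86.4 and 132 per 10000 against 0.357 to 0.396, and was chosen after its values were seen. *Gm26917*, *Gm42418* and *AY036118*, gene models that overlap ribosomal RNA sequence, held 216, 212 and 119 UMIs and were called higher (edgeR log2 fold changes 3.66, 3.86 and 3.62).

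The ratio of *Alas2* to globin was higher in the other barcodes than in the hemoglobin-rich barcodes of each library, and most so in untreated. This was not particular to *Alas2*. The ratio of *Bpgm* to globin was 78.6, 254, 83.1 and 139 per 1000 in the other barcodes against 0.878, 1.61, 1.02 and 0.904. *Fech*, *Mkrn1*, *Ube2l6*, *Rsad2* and *Isg20* were also higher by this ratio in the other barcodes of each library. The hemoglobin-rich barcodes held 2.06, 1.73, 1.67 and 2.21 *Alas2* UMIs per 1000 globin UMIs in untreated, anti-PD-L1 and anti-OX40/CpG mice and in the PDOX mouse, in this order. The other barcodes of untreated held 68.5 per 1000 (exact Poisson interval 52.4 to 87.9, against 1.86 to 2.28 in hemoglobin-rich barcodes), from 61 *Alas2* UMIs in 57 barcodes with at most 2 in each. In the libraries of treated mice the other barcodes held 3, 5 and 4 *Alas2* UMIs, or 9.52, 5.46 and 8.05 per 1000. Their intervals, 1.96 to 27.8, 1.77 to 12.8 and 2.19 to 20.6, overlapped those of the hemoglobin-rich barcodes, 1.16 to 2.48, 1.39 to 1.99 and 1.87 to 2.59. Of the 57 untreated barcodes 71.9% had a globin UMI, against 59.9% of the other barcodes without *Alas2*, at median depths of 3252 and 2640 UMIs.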
